A study of Homo sapiens with 6 samples.

Results

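The 10 genes described here encode the hypoxia-inducible factors and the oxygen-dependent enzymes around them. They were taken by gene symbol from the 38986 symbols listed for every library: the factor subunits Hif1a, Epas1 and Arnt, the factor hydroxylases Egln1, Egln2, Egln3 and Hif1an, the ubiquitin ligase subunit Vhl, and the collagen hydroxylase subunits P4ha1 and P4ha2. All 10 symbols were found, and 9 had enough counts to be tested. The series holds 6 RNA-seq libraries. Of these, 3 are labelled as mCherry-positive 293T cells that overexpress wild-type STAT6, and 3 as mCherry-positive 293T cells with Mock, given as genotype WT. The 293T line derives from human embryonic kidney, and all cells were grown in DMEM with fetal bovine serum. The labels give no oxygen level and no hypoxia treatment, and they leave unsaid whether each numbered library is its own culture. The p-values therefore measure a spread that may be technical.

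The files and the labels did not match in organism, cell type or Stat6, and each group is therefore called by its label. The symbols are written as mouse symbols, and no row is named for human STAT6. Stat6 stood at 35.1, 33.6 and 32.1 CPM (counts scaled to a common library total) in STAT6-labelled libraries, against 95.2, 95.5 and 92.8 CPM in Mock-labelled libraries, so it was lower where the label says overexpression. Summed over 10 pigment cell markers, transcripts reached 17038 to 17190 CPM in STAT6-labelled libraries and 14694 to 15046 CPM in Mock-labelled libraries, and all 10 markers were expressed. Of the 10, 6 (60%) were called higher and 3 (30%) lower, against 35.8% and 36.8% of all genes tested. Tyr (log2 fold change -3.38) and Oca2 (-1.35) were lower by more than 2-fold, and 0 markers were higher by that much. Of 10 embryonic kidney markers 2, Eya1 and Lhx1, passed the filter on low counts. Their list summed to 53.0 to 56.3 CPM in STAT6-labelled libraries and to 257 to 267 CPM in Mock-labelled libraries, almost all from Eya1. Lhx1 went the other way, with 198 counts in the STAT6 group and 0 in the Mock group, as did Wt1 with 11 and 0, and Pax8, Six2 and Umod had 0 counts in all libraries. Totals ran from 19894773 to 23648304 counts in STAT6-labelled libraries and from 22368757 to 29802693 in Mock-labelled libraries. Within each group, counts differed between libraries by 1.46 to 2.48 times the counting noise, so none was a copy of another.

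Cells read oxygen through enzymes that need it as a substrate. Egln1, Egln2 and Egln3, also called PHD2, PHD1 and PHD3, hydroxylate prolines of the alpha subunits HIF-1alpha (Hif1a) and HIF-2alpha (Epas1), and Vhl then marks these subunits for destruction. Hif1an, also called FIH, hydroxylates an asparagine and so blocks the binding of coactivators. When oxygen falls, the alpha subunits persist, pair with Arnt and switch on genes of glycolysis, vessel growth and matrix. Most of this control acts on protein, which RNA counts do not show. Collagen prolyl 4-hydroxylase, whose catalytic subunits include P4ha1 and P4ha2, belongs to the same enzyme class, and both genes are known targets of the factors. In pigment cells Mitf is known to drive transcription of Hif1a.

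Among the 9 tested genes, 4 were higher and 4 were lower in STAT6-labelled libraries, and 1 did not pass the threshold of an adjusted p under 0.05 (edgeR). Over all 12938 genes tested, 72.6% passed, 35.8% as higher and 36.8% as lower, so a call alone sets none of the members apart. The CPM ranges of the groups did not overlap for 7 of the 9, 3 of them with the higher range in STAT6-labelled libraries, against 74.6% and 36.9% of all genes tested. Their sizes of change differed widely. Epas1 was lower by more than 2-fold and P4ha1 higher by more than 2-fold, which 4.96% and 10.6% of tested genes reached in those directions. P4ha2 was higher by 1.58-fold. Every other tested member differed by less than 1.2-fold, and the median over all genes was a log2 change of 0.35 in either direction. Fewer cells that carry a transcript and less of it in each cell cannot be told apart in bulk RNA.

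**Figure D1:**
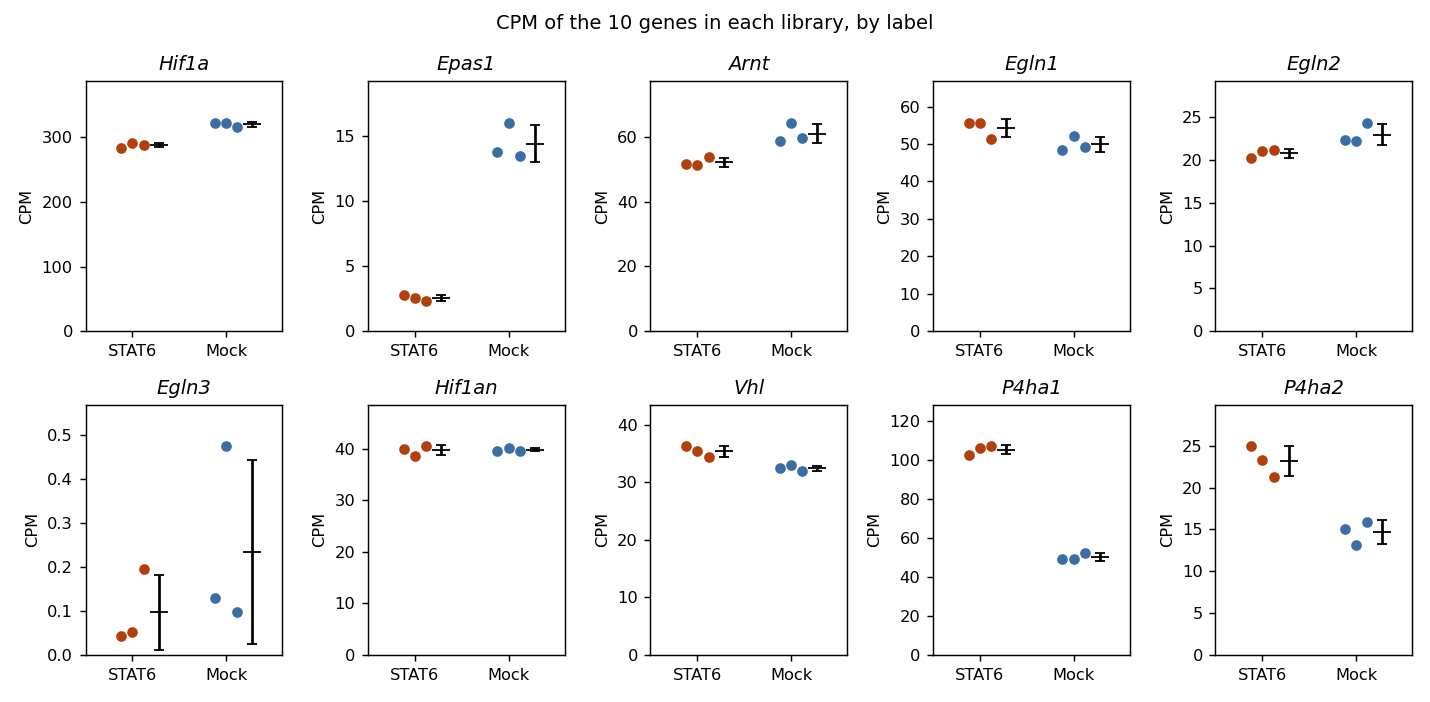
CPM of each of the 10 genes in every library, on axes that start at 0; points are libraries, and the bar beside them is the mean with its SD (n = 3). Epas1 and P4ha1 show groups far apart, whereas Hif1an and Egln1 show groups that overlap.

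Of the factor subunits, Epas1 changed most. It stood at 2.76, 2.53 and 2.30 CPM in STAT6-labelled libraries, against 13.7, 16.0 and 13.4 CPM in Mock-labelled libraries, and the lowest Mock value was above the highest STAT6 value several times over. The means were 2.53 ± 0.231 and 14.4 ± 1.41 CPM (SD, n = 3 each). This was a log2 fold change of -2.49 with SE 0.12 (adjusted p = 7.89e-20), or 5.63-fold lower, and 4.45% of tested genes had a larger change in either direction. The raw counts behind it were 64, 49 and 47 against 316, 371 and 410. Epas1 was first named for endothelial cells. Over 8 endothelial markers the summed level was 2.25 to 2.79 CPM in STAT6-labelled libraries and 0.948 to 1.48 CPM in Mock-labelled libraries, with Cdh5 and Emcn at 0 counts. Almost all came from Vwf and Pecam1, with 105 and 45 counts in the STAT6 group against 81 and 8 in Mock. Only Vwf was tested, and it was called higher (log2 fold change 0.65, adjusted p = 0.0248). That call was lost with DESeq2 and without STAT6 replicate 3, Mock replicate 2 or Mock replicate 3 (adjusted p up to 0.23).

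Hif1a, whose product is found in most cell types, was slightly lower. Its values were 284, 292 and 289 CPM in STAT6-labelled libraries, against 323, 322 and 316 CPM in Mock-labelled libraries, without overlap. The log2 fold change was -0.15 with SE 0.03 (adjusted p = 2.9e-05), which is 1.11-fold lower, and 76.0% of tested genes had a larger change. Arnt, the stable partner that the alpha subunits need to bind DNA, was at 51.7, 51.1 and 53.7 CPM in STAT6-labelled libraries and at 58.8, 64.3 and 59.7 CPM in Mock-labelled libraries. It was lower by 1.17-fold (log2 fold change -0.22, SE 0.05, adjusted p = 4.09e-05), again without overlap. A test for a change beyond 1.5-fold did not call either gene.

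The balance between the alpha subunit transcripts differed between the groups. Epas1 held 0.871% ± 0.0868 of the summed Hif1a and Epas1 counts in STAT6-labelled libraries, against 4.29% ± 0.376 in Mock-labelled libraries (SD, n = 3 each). These shares are not corrected for transcript length, so only their difference between groups is read. The log2 ratio of Epas1 over Hif1a, which does not depend on the scaling of libraries, was lower by 2.34 on the log2 scale in STAT6-labelled libraries. The exact 2-sided permutation test gave p = 0.1, the smallest that 20 assignments of the libraries allow, and 0.15 adjusted over the 3 ratios tested.

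**Figure D2:**
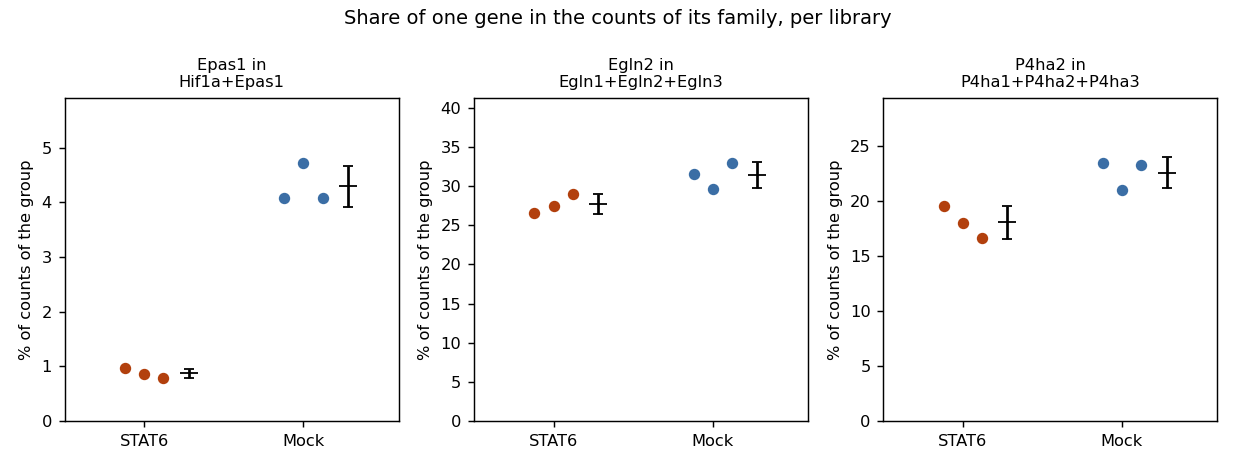
Share of Epas1, Egln2 and P4ha2 in the summed counts of their gene family, as a percentage per library; points are libraries, and bars are the mean with its SD (n = 3). The Epas1 share sits near 0.871% in STAT6-labelled libraries and near 4.29% in Mock-labelled libraries.

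Relatives of these subunits, which share the bHLH-PAS fold, were mostly scarce. Of 10 listed genes 6 were tested, and 4 (66.7%) passed the threshold, against 72.6% of all genes tested. Hif3a and Arnt2 passed the filter on low counts through the STAT6 group alone, where they are high, so their calls could go only one way. Of the other 4, 2 were higher and 0 lower in STAT6-labelled libraries. Hif3a, a relative that can oppose the other alpha subunits, had 45, 46 and 54 counts in STAT6-labelled libraries and 0 counts in each Mock-labelled library. With the Mock group set to a floor of 3 counts, it was at least 59.0-fold higher. Arnt2, a partner subunit best known from the nervous system, had 19, 24 and 22 counts against 0, 5 and 4, or 1.05 ± 0.210 CPM against 0.115 ± 0.109 (adjusted p = 5.44e-07). Ahr, the dioxin receptor, which also pairs with Arnt, was at 25.0, 24.2 and 24.9 CPM in STAT6-labelled libraries and at 16.1, 15.3 and 12.9 CPM in Mock-labelled libraries. Its log2 fold change was 0.75 (adjusted p = 1.88e-11), and that of Npas3, a neural relative, was 0.71 (adjusted p = 2.66e-05). Ahrr, the repressor of Ahr, did not pass at 0.04 (adjusted p = 0.832), nor did the clock gene Bmal1 at 0.02 (adjusted p = 0.835).

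The oxygen-sensing hydroxylases differed little between the groups. Egln1, the main prolyl hydroxylase of the factors in most tissues, was at 55.7, 55.5 and 51.5 CPM in STAT6-labelled libraries, against 48.3, 52.1 and 49.3 CPM in Mock-labelled libraries. The groups overlapped, and the log2 fold change was 0.12 with a 95% interval from 0.03 to 0.22 (adjusted p = 0.02). That call was lost with DESeq2 (adjusted p = 0.056), with no filter (0.0666) and with scaling to library totals alone, where the log2 fold change was 0.05 (adjusted p = 0.368). It was also lost on leaving out STAT6 replicate 1 (adjusted p = 0.105), STAT6 replicate 2 (0.0797), Mock replicate 1 (0.0942) or Mock replicate 3 (0.0694).

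Egln2 was on the other side of 0. It stood at 20.2, 21.1 and 21.2 CPM in STAT6-labelled libraries and at 22.4, 22.2 and 24.4 CPM in Mock-labelled libraries, without overlap. The log2 fold change was -0.15 with a 95% interval from -0.28 to -0.02 (adjusted p = 0.0361). DESeq2 did not call it (adjusted p = 0.119), and the call ended on leaving out STAT6 replicate 1 (adjusted p = 0.118), STAT6 replicate 2 (0.0622) or Mock replicate 3 (0.193).

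Egln3, usually the most hypoxia-inducible of the hydroxylases, was close to undetected. It had 1, 1 and 4 counts in STAT6-labelled libraries and 3, 11 and 3 counts in Mock-labelled libraries. Over the groups this was 6 against 17 counts, a ratio of 0.431 with an exact conditional 95% interval from 0.139 to 1.14 that covers counting error only. A difference was not detectable at this depth, and the gene did not pass the filter on low counts. The log2 ratio of Egln3 over Egln1 gave p = 0.3 in the exact permutation test.

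Hif1an, the asparaginyl hydroxylase, was at 40.0, 38.6 and 40.4 CPM in STAT6-labelled libraries, against 39.6, 40.2 and 39.6 CPM in Mock-labelled libraries. The groups overlapped. The log2 fold change was -0.0040 with a 95% interval from -0.10 to 0.09 (adjusted p = 0.945), and 99.4% of tested genes had a larger change.

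**Figure D3:**
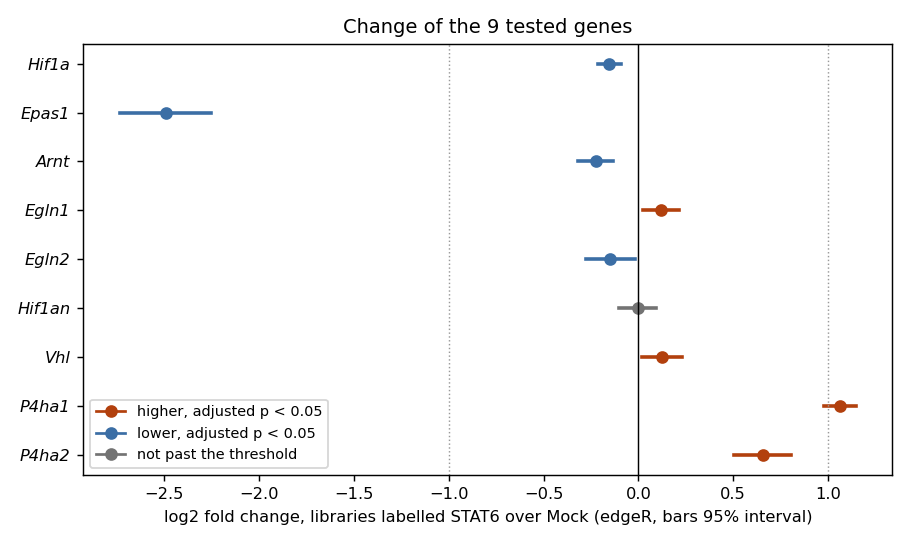
Log2 fold change of the 9 tested genes in STAT6-labelled libraries over Mock-labelled libraries; points are edgeR estimates, bars their 95% intervals, and dotted lines mark 2-fold changes. Epas1 at -2.49 and P4ha1 at 1.06 lie beyond 2-fold, P4ha2 at 0.66 stands between, and the other genes lie close to 0.

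Vhl, the subunit that recognises hydroxylated alpha subunits, was slightly higher. Its values were 36.2, 35.5 and 34.4 CPM in STAT6-labelled libraries, against 32.4, 32.9 and 31.9 CPM in Mock-labelled libraries, without overlap. The log2 fold change was 0.13 with a 95% interval from 0.02 to 0.23 (adjusted p = 0.0281). The call was lost with DESeq2 (adjusted p = 0.0799), upper-quartile factors (0.0556), no filter (0.109) and library totals alone, where the log2 fold change was 0.05 (0.368). It did not pass either when STAT6 replicate 1 (0.119), STAT6 replicate 2 (0.0603), Mock replicate 1 (0.0597) or Mock replicate 3 (0.0892) was left out.

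Genes that work with Vhl in the ligase went both ways, 4 higher and 3 lower of 10 tested, at a median log2 fold change of -0.02. Those called made up 70% of the list, against 72.6% of all genes tested, so the count does not set the list apart. The elongins that hold Vhl to the ligase were higher, Eloc at 127 ± 3.98 against 101 ± 3.73 CPM (log2 fold change 0.34, adjusted p = 6.77e-10) and Elob with a log2 fold change of 0.20 (adjusted p = 4.9e-05). The scaffold Cul2 was lower by 0.19 on the log2 scale (adjusted p = 2.09e-05). The RING subunit Rbx1 was at -0.10 (adjusted p = 0.026), a call lost with DESeq2, and also when STAT6 replicate 2, STAT6 replicate 3 or Mock replicate 3 was left out (adjusted p up to 0.178). Ube2d1, a ubiquitin-conjugating enzyme, had the largest change of the list at 0.72 (adjusted p = 7.42e-16), and its relative Ube2d3 was at -0.28 (adjusted p = 1.47e-10). Nedd8, the small modifier that activates cullins, was at 0.41 (adjusted p = 8.8e-11). Ube2d2a at -0.05, and the deubiquitinases Usp20 at -0.0078 and Usp33 at -0.03, did not pass.

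Among 24 tested genes that stabilise, degrade or assist the factors, 9 were higher and 11 lower, at a median log2 fold change of -0.04. Those called made up 83.3% of this list, against 72.6% of all genes tested. The chaperones Hsp90ab1, at 2024 ± 26.6 against 2899 ± 39.7 CPM, and Hsp90aa1, at 1873 ± 29.5 against 2463 ± 42.8 CPM, keep the alpha subunits folded, and both were lower (log2 fold changes -0.52 and -0.39). Rack1, which promotes degradation of HIF-1alpha independently of oxygen, was lower as well (-0.52, adjusted p = 2.57e-17). Os9, reported to bind HIF-1alpha and the hydroxylases, was higher by 0.83 on the log2 scale (adjusted p = 5.86e-21). Ajuba, a scaffold for Vhl and the hydroxylases, was higher by 0.91 (adjusted p = 9.78e-19), and Mdm2, better known as the ligase of p53, by 1.28 (adjusted p = 6.83e-29).

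Both collagen prolyl 4-hydroxylase subunits were higher in STAT6-labelled libraries. P4ha1 was at 103, 106 and 107 CPM there, against 49.0, 49.4 and 52.4 CPM in Mock-labelled libraries. The groups were far apart, at 105 ± 2.36 and 50.3 ± 1.81 CPM (SD, n = 3 each), a log2 fold change of 1.06 with SE 0.04 (adjusted p = 1.39e-22) or 2.09-fold. P4ha2 stood at 24.9, 23.3 and 21.3 CPM in STAT6-labelled libraries and at 15.1, 13.1 and 15.8 CPM in Mock-labelled libraries, without overlap. Its log2 fold change was 0.66 with SE 0.07 (adjusted p = 1.39e-09), but a test for a change beyond 1.5-fold did not call it (adjusted p = 0.248). The log2 ratio of P4ha1 over P4ha2 was higher by 0.41 in STAT6-labelled libraries (exact permutation test, p = 0.1, and 0.15 adjusted over 3 ratios), a difference that did not pass. P4ha3, the remaining catalytic subunit, had 0 counts in the STAT6 group and 2 in the Mock group.

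Other genes that modify collagen in the endoplasmic reticulum were mostly higher too. Of 13 tested, 9 (69.2%) passed as higher and 3 (23.1%) as lower, against 35.8% and 36.8% of all genes tested. Of the lower genes, 1 passed the filter through the Mock group alone. P4hb, the common beta subunit of the prolyl 4-hydroxylase and a disulfide isomerase, averaged 1219 CPM in STAT6-labelled libraries and 949 CPM in Mock-labelled libraries (0.36, SE 0.03, adjusted p = 2.11e-14). The prolyl 3-hydroxylase P3h2 was at 150 ± 2.42 against 55.8 ± 0.179 CPM (1.42, adjusted p = 1.31e-27), and P3h3 was higher by 1.02 on the log2 scale (adjusted p = 3.94e-20). The lysyl hydroxylases Plod2 (0.57, adjusted p = 3.21e-16) and Plod3 (0.60, adjusted p = 4.33e-13) were higher, while the collagen chaperone Serpinh1 was lower (-0.32, adjusted p = 1.02e-11). Of 8 fibroblast markers 4 were tested, 1 (25%) higher and 2 (50%) lower, against 35.8% and 36.8% of all genes tested. Col1a1 was higher (4.02), Col1a2 (-2.64) and Pdgfrb (-2.20) were lower, and Pdgfra did not pass (0.34). The 8 markers summed to 81.9 to 88.0 CPM in STAT6-labelled libraries, almost all from Col1a1, against 35.1 to 35.9 CPM in Mock-labelled libraries. Dcn, Lum, Thy1 and Dpt had at most 1 count over all libraries. What part Col1a1-expressing cells had in these changes was not tested.

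Genes listed as neighbours of P4ha1 are given as a description, since the list was drawn up with results for this stretch known. In the human gene order of GRCh38.p14, the listed genes from Kifbp to Pla2g12b are taken to come before P4HA1 on chromosome 10. Mouse positions were not analysed here. On that reading the list leaves out 16 of the 42 places before P4HA1. Only distances from P4HA1 were recorded, so the side on which each listed gene lies was not checked. Of 26 listed neighbours 20 were tested. Of the 20, 19 (95%) were higher and 1 (5%) lower, against 35.8% and 36.8% of all genes tested. The lower gene was Ppa1 (-0.38, named after its value was seen). Among the 20, 2 of the higher genes passed the filter through the STAT6 group alone, and 17 of the remaining 18 were higher. The smallest adjusted p belonged to the hexokinase gene Hk1 (1.71), the lysosomal gene Psap (1.29), Kifbp (1.12), Tspan15 (1.87), Vps26a (0.70) and Sgpl1 (0.63). Closer to P4ha1, the mitochondrial calcium channel gene Mcu was at 23.1, 23.8 and 26.2 CPM in STAT6-labelled libraries, against 17.0, 18.3 and 18.2 CPM in Mock-labelled libraries (0.45, adjusted p = 2.25e-07). Ddit4, an mTORC1 inhibitor that the factors also induce, was higher by 0.85 (adjusted p = 4.25e-13). Pla2g12b, the nearest gene in that order, had 0 counts.

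**Figure D4:**
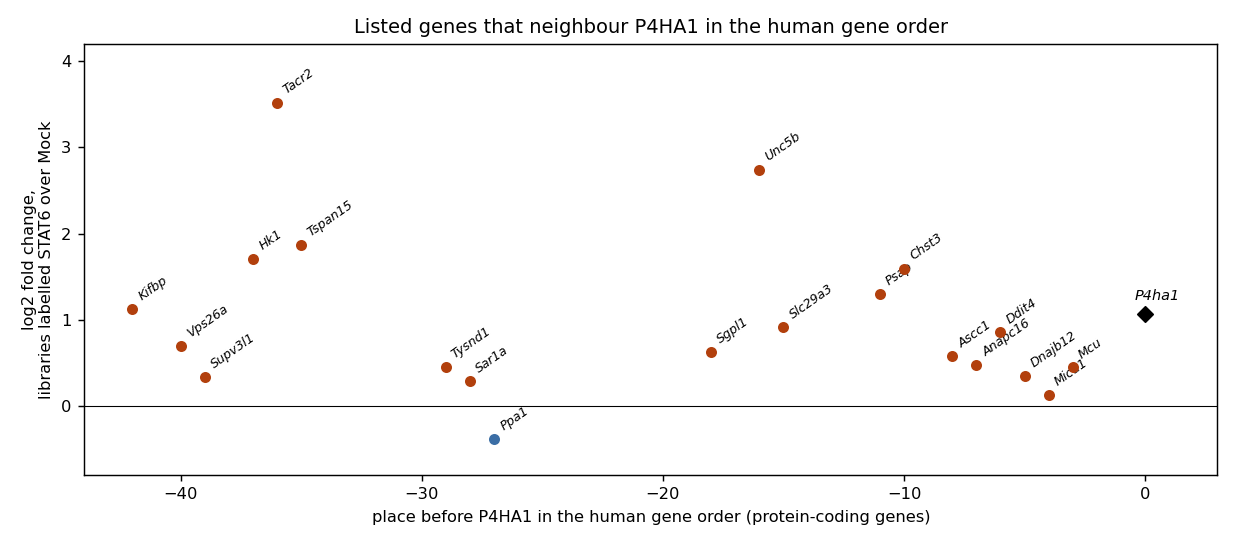
Log2 fold change in STAT6-labelled libraries over Mock-labelled libraries, for the 20 tested neighbours by their distance from P4HA1 in the human gene order. Distances count protein-coding genes and are drawn as places before P4HA1. The black diamond is P4ha1 at 1.06. All points but Ppa1 at -0.38 lie above 0.

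Known target genes of the factors went in both directions. Of 76 listed genes, with the members left out, 62 passed the filter on low counts and 14 did not. Of the 62, 28 (45.2%) were higher and 22 (35.5%) lower in STAT6-labelled libraries, against 35.8% and 36.8% of all genes tested. Of these, 7 passed the filter through 1 group alone, 5 of them higher and 2 lower, and the other 55 had 23 higher and 20 lower. Changes of at least 2-fold numbered 8 higher and 5 lower. Over all genes tested, 10.6% were higher and 4.96% lower by that much. The 8 and 5 include the 5 higher and 2 lower genes that passed through 1 group alone, whose calls could go only one way. Ankrd37 and Adm, targets that usually respond strongly to low oxygen, were barely present: Ankrd37 had 15 counts in the STAT6 group and 21 in the Mock group, and Adm 0 and 1.

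Of 22 tested targets in glycolysis and glucose transport, 13 (59.1%) were lower and 6 (27.3%) higher, against 36.8% and 35.8% of all genes tested. Aldoc passed the filter through the Mock group alone. The glucose transporter gene Slc2a1 was at 27.0, 23.7 and 23.8 CPM in STAT6-labelled libraries, against 37.5, 44.1 and 43.1 CPM in Mock-labelled libraries (-0.74, adjusted p = 2.25e-11). Lactate dehydrogenase Ldha was at 343, 336 and 348 against 516, 494 and 540 CPM (-0.59, adjusted p = 2.26e-18). Pyruvate kinase Pkm (-0.40) and the enolase Eno1 (-0.31) were lower as well, and the aldolase gene Aldoc had 6 counts in the STAT6 group against 162 in the Mock group (-4.38, adjusted p = 2.48e-11). Eno2, the neuronal enolase, went the other way at 27.9 ± 2.46 against 2.68 ± 0.425 CPM (3.39, adjusted p = 6.29e-26). Pdk1 did not pass at 5.90 ± 0.125 against 5.91 ± 0.574 CPM (adjusted p = 0.947).

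Targets that act on vessels or are secreted were in part scarce. Of 15 listed, 7 were tested, 5 (71.4%) higher and 2 (28.6%) lower, against 35.8% and 36.8% of all genes tested. Of the higher genes, 4 passed the filter through the STAT6 group alone, Angptl4 and Stc1 among them. The other listed genes, Epo and Edn1 among them (named after their 0 counts were seen), were at or near 0. Vegfa, the main vessel growth factor of the hypoxia response, was at 2.25, 2.73 and 2.25 CPM in STAT6-labelled libraries, against 12.4, 13.4 and 13.5 CPM in Mock-labelled libraries. This was a log2 fold change of -2.45 with SE 0.12 (adjusted p = 1.38e-19), close in size to that of Epas1. Ackr3, a scavenging chemokine receptor, was lower by 1.64 on the log2 scale (adjusted p = 3.83e-13). Angptl4, a lipoprotein lipase inhibitor, had 115 counts in the STAT6 group and 1 in the Mock group, that is 140 times as many per library total, with a 95% counting interval from 24.7 to 5589. Stc1 (2.91, adjusted p = 1.35e-11) and the growth factor gene Tgfb3 (0.58, adjusted p = 6.06e-09) were higher.

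Of 7 listed matrix targets, Loxl4 passed the filter through the STAT6 group alone. In total 6 were tested and called higher, against 35.8% of all genes tested. They were the lysyl oxidase relatives Loxl4 (5.27, adjusted p = 2.01e-23) and Loxl2 (2.33, adjusted p = 2.4e-19), the collagen gene Col5a1 (0.71), the lysyl hydroxylases Plod2 (0.57) and Plod1 (0.21), and the membrane protease gene Mmp14 (0.20). Lox itself had 0 counts. Plod2 and Plod1 are also counted among the collagen-modifying genes above, so these counts are not separate.

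**Figure D5:**
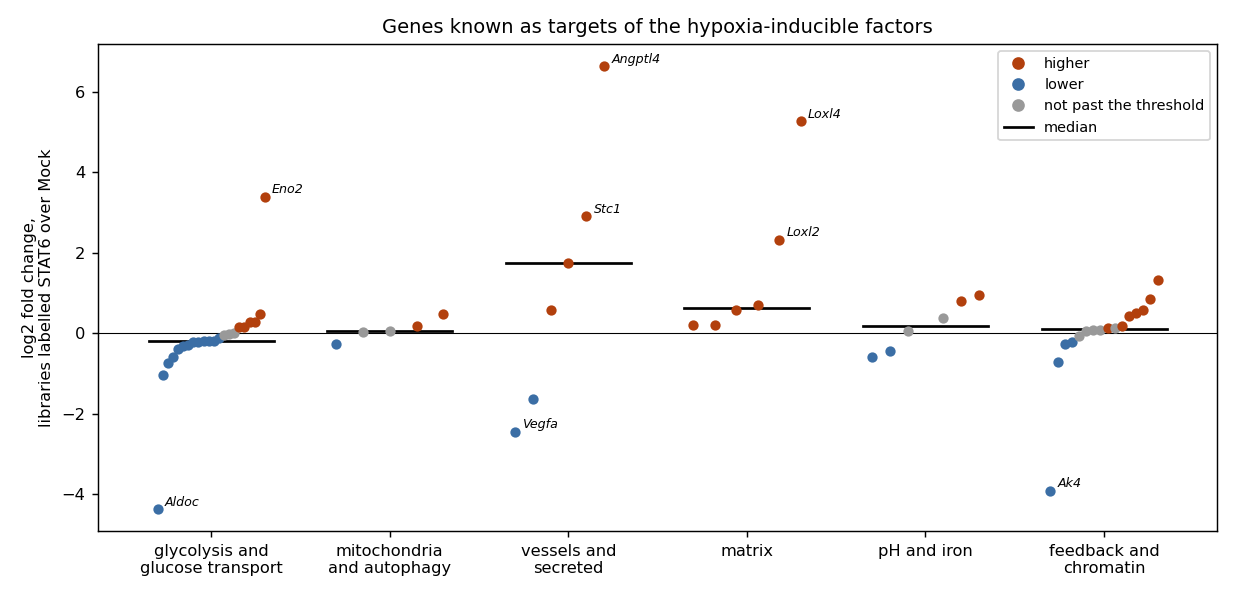
Log2 fold change of tested target genes by role, in STAT6-labelled libraries over Mock-labelled libraries; each point is a gene coloured by its call, and black lines are medians of all tested genes of the role. Vegfa at -2.45 and Stc1 at 2.91 stand in the same group, and the 6 tested matrix genes lie above 0.

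Targets that act in mitochondria, pH, iron and feedback were divided. Of tested genes, 60% passed among mitochondrial and autophagy targets, 71.4% for pH and iron, and 68.8% for feedback and chromatin. Over all genes tested, 72.6% passed. Of 5 tested mitochondrial and autophagy targets, 2 were higher and 1 lower: the mitophagy receptor gene Bnip3l at 101, 99.0 and 100.2 against 70.7, 73.7 and 72.6 CPM (0.47, adjusted p = 2.43e-13), Higd1a (0.19), and the protease gene Lonp1 (-0.28). Bnip3, the relative of Bnip3l, did not pass at 17.4 ± 0.920 against 17.0 ± 0.993 CPM (0.03, adjusted p = 0.704), nor did Fam162a (0.06). For pH and iron 3 were higher and 2 lower of 7, with heme oxygenase Hmox1 (0.79) and transferrin Trf (0.95) higher and the transferrin receptor Tfrc (-0.45) and ceruloplasmin Cp (-0.60) lower. Car12, a carbonic anhydrase gene, did not pass at 0.37. Feedback and chromatin targets had 7 higher and 4 lower of 16. The repressor gene Bhlhe40 was at 71.1, 75.2 and 69.7 CPM in STAT6-labelled libraries, against 115, 120 and 118 CPM in Mock-labelled libraries (-0.71, adjusted p = 6.15e-18), and the adenylate kinase gene Ak4, which passed the filter through the Mock group alone, was at -3.92 (adjusted p = 4.22e-16). Rora (1.32), the oxidase gene Ero1a (0.57), Ddit4 and Insig2 (0.44) were higher, while Ndrg1, a classical hypoxia gene, did not pass at 0.07 (adjusted p = 0.123).

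Across the 6 libraries many genes shared the profile of a member, because the groups differed in most genes. Among 8895 other tested genes with a mean of at least 10 CPM, 1924 had a Pearson r of at least 0.95 with Hif1a on log2 CPM, the highest being Mcm8 (0.9983), Zfp51 (0.9982) and Tango6 (0.9980). For Epas1, 2342 of 8896 reached that value, led by Foxk1 (0.9998), Oga (0.9995) and Sirpa (0.9994). The points share their library totals and fall into 2 groups, so these values describe the profiles only. Foxk1 was at 34.9, 34.3 and 33.7 CPM in STAT6-labelled libraries and at 48.5, 50.5 and 48.0 CPM in Mock-labelled libraries, the same order of libraries as Epas1 with a smaller fold.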

How the data were processed

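RNA was sequenced from 6 libraries of 2 groups, mapped by title. The deposited files hold whole-number counts per gene symbol, not normalized by the authors as far as the values show. The kit marked strand and selected mRNA, per the labels' protocols. FastQC, STAR, Salmon, edgeR and GRCh37 are named, without versions or roles, per the submitters' processing notes; the strand setting and the way reads were assigned to genes are not given in the sources that were used, so reads shared with antisense or overlapping genes cannot be told apart. Mouse sequences and positions were not used here.

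Counts were tested with edgeR 4.0.16 in R 4.3.3 on all 6 libraries: filterByExpr (12938 genes kept), TMM, glmQLFit with robust fitting, glmQLFTest, 2-sided, Benjamini-Hochberg adjustment over all tested genes, threshold 0.05. SE is the log2 fold change divided by the root of F. A bracketed value after a gene is its log2 fold change, STAT6 over Mock. CPM were computed on the TMM-adjusted total of tested genes. Ratios used counts + 0.5 and an exact permutation test. Floors are 3 counts over a group (0.0391 CPM for Mock), for counting error only. The edgeR fit was checked on simulated counts in which only a small share of genes changed. Scaling where most genes differ, as here, was not covered by it.

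The members, gene lists and tests were chosen with earlier results of these data known. The lists share some genes, such as Plod2, Higd1a and Pkm, which count in each list that holds them. The naming rule takes all members, all tested relatives and ligase genes, up to 6 genes per other list by smallest adjusted p, and 10 preset genes. Alternatives were other scalings and filters, DESeq2 1.42.0, limma-voom (limma 3.58.1), the replicate number as a block, each library left out, an adjusted p of 0.01 and glmTreat beyond 1.5-fold. The values of 2 target genes are not reported here; they are not drawn in the plot of targets but count in the list totals and medians.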

Additional observations from a re-analysis of the deposited data

How the results depend on the processing

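Epas1, Hif1a, Arnt, P4ha1 and P4ha2 kept direction and call under 15 or all 16 alternatives. Their log2 fold changes ranged from -2.57 to -2.42, -0.23 to -0.14, -0.30 to -0.19, 0.99 to 1.09 and 0.58 to 0.72. The exception was the test for a change beyond 1.5-fold, which called Epas1 and P4ha1 only: 1 member higher, 1 lower, and 12 targets higher and 7 lower. Members called higher numbered 2 with library totals alone, no filter, DESeq2 and an adjusted p of 0.01, since Egln1 and Vhl were lost, and 2 to 4 with each library left out. Members called lower numbered 3 to 4 with each library left out. Hif1an, never past the threshold, turned to 0.0020 with at least 1 CPM in 3 libraries and to 0.016 without STAT6 replicate 2 (-0.020 to 0.016 as each library was left out). No ratio changed direction. The log2 ratio of Egln3 over Egln1 ranged from -1.69 to -0.50 as libraries were left out, since Egln3 had 6 and 17 counts.

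Same-numbered libraries did not all deviate together: correlations of their deviations were 0.19, 0.21 and -0.04, and not every library correlated best with its own number. The replicate block gave 4 members higher and 4 lower, and 29 targets higher and 22 lower; no member's call changed with the block. With pairs the exact test of the ratios cannot go below p = 0.25, given for Epas1 over Hif1a (-2.34) and P4ha1 over P4ha2 (0.41), and p = 0.5 for Egln3 over Egln1 (-1.11). Depth limits Egln3, Hif3a and Arnt2, which had few counts.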

Other observations

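Of 27 tested genes for other dioxygenases that use oxygen, 20 (74.1%) passed the threshold, against 72.6% of all genes tested, so the count does not set the list apart. Of these, 8 were higher and 12 lower, and with library totals alone 7 were higher and 16 lower. Ado, a cysteine dioxygenase that acts as an oxygen sensor of its own, averaged 129 ± 0.672 CPM in STAT6-labelled libraries and 69.9 ± 2.23 CPM in Mock-labelled libraries (SD, n = 3 each; log2 fold change 0.89, adjusted p = 2.66e-21). The histone demethylase genes Kdm7a (1.30, adjusted p = 2.79e-23) and Kdm5b (0.99, adjusted p = 3.95e-18) were higher. Kdm5b stood at 42.7, 43.9 and 43.2 CPM in STAT6-labelled libraries, against 22.3, 21.9 and 21.3 CPM in Mock-labelled libraries. Asph, an aspartyl hydroxylase of the endoplasmic reticulum, was lower (-0.85, adjusted p = 1.11e-17).

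Phyh, the peroxisomal enzyme that breaks down phytanic acid, was at 1.99, 1.96 and 1.27 CPM in STAT6-labelled libraries, against 10.7, 11.8 and 12.2 CPM in Mock-labelled libraries (-2.73, adjusted p = 6.32e-19). Tmlhe, which starts carnitine synthesis in mitochondria, had 2 counts in the STAT6 group and 271 in the Mock group, and it passed the filter on low counts through the Mock group alone. That is 111-fold lower, with a 95% counting interval from 30.5 to 921.8.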
